A study of Mus musculus with 6 samples.

Results

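The contractile genes of smooth muscle, myofibroblasts and myoepithelium were followed in mammary tumors of NeuT/ATTAC mice. They were 10 genes picked by symbol, Acta2, Actg2, Myh11, Myl9, Mylk, Tagln, Cnn1, Lmod1, Tpm2 and Des, each of which mapped to 1 Ensembl gene ID among the 54532 IDs in the expression tables. All 10 had a value above 0 in every tumor, and all 10 passed the filter for testing, a mean of at least 0.5 FPKM over the 6 tumors (15069 genes). RNAseq was available for 3 tumors of IgG-treated mice and 3 tumors of anti-PD-1-treated mice, as 1 library per labelled replicate. The paper says that tumor RNA was pooled within a group before sequencing, while the labels and the files hold 3 separate libraries a group. Whether a library held the RNA of 1 tumor or of several is thus not settled; the libraries are called tumors here, and every n, SD and p refers to libraries. The NeuT/ATTAC cross carries MMTV-NeuT, in which the MMTV promoter drives Erbb2 in the mammary epithelium, and FAT-ATTAC, which lets the drug AP20187 ablate fat cells and leads to mammary fibrosis. The FAT-ATTAC line came from C57BL/6 mice and was crossed to the FVB background. Both groups thus had the same transgenes and the same ablation, with 0.4 mg/kg AP20187 by intraperitoneal injection from 6 weeks of age (biweekly in the sample labels, triweekly in the study's methods). From 8 weeks of age, the mice were given 100 μg of isotype IgG or of anti-PD-1 mAb, 2 times per week. Animals with intact fat were not among these libraries, so the comparison covers antibody treatment within fibrotic glands only.

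Smooth muscle shortens when myosin filaments pull on actin filaments, and the switch lies on the myosin: calcium activates myosin light chain kinase (Mylk), which phosphorylates the regulatory light chain (Myl9) and lets the smooth muscle heavy chain (Myh11) work on the actins Acta2 and Actg2. Tropomyosin (Tpm2), calponin (Cnn1), transgelin (Tagln) and leiomodin (Lmod1) sit on the actin filament, and desmin (Des) ties the contractile apparatus together. In the mammary gland these genes are used by the myoepithelial cells that squeeze milk from the alveoli, by the walls of blood vessels, and in part by myofibroblasts, the activated fibroblasts of scar tissue, for which Acta2 is the usual marker. Many of them are switched on by serum response factor (Srf), which binds the CArG box together with myocardin (Myocd) or the related factors Mrtfa and Mrtfb.

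The promoters are shown first because CArG boxes are the sequence feature these genes are known for. RefSeq promoter windows (GRCm38.p6) were matched for 7 of the 10 genes, namely Acta2, Cnn1, Des, Lmod1, Myl9, Mylk and Tpm2, and the 250 bases before each start were searched on both strands. A strict CArG box was present in 1 of the 7 (Myl9), against 1.39% of the 10310 tested genes with a promoter window. When 1 inner base was allowed to be C or G, a form chosen after the sequences had been seen, 2 of the 7 genes (Acta2 and Myl9) held one, against 8.23% of the tested genes. The 4 boxes are printed below in capitals with 10 bases on each side, read 5′ to 3′ on the strand of the gene, and the positions count back from the RefSeq start.
Acta2, bases -84 to -75, chr19:34255438-34255467, minus strand: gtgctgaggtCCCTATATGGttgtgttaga
Acta2, bases -34 to -25, chr19:34255388-34255417, minus strand: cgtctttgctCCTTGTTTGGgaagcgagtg
Myl9, bases -161 to -152, chr2:156775293-156775322, plus strand: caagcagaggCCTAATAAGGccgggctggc
Myl9, bases -99 to -90, chr2:156775355-156775384, plus strand: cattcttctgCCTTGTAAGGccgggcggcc
Each gene thus had a pair of boxes, of which the one in Myl9 starting at base -161 is the strict form. The Acta2 boxes lie upstream of the RefSeq start but inside the gene as GENCODE draws it, since that annotation starts Acta2 farther upstream. The letters TATAAA, searched in the same way, were in 0 of the 7 windows and in 8.09% of those of tested genes. The Mylk window belongs to an internal start of that long gene, so the upstream promoters of Mylk were not searched.

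The reads recovered from the FPKM values summed to between 21065845 and 23843887 per library. These sums leave out gene IDs, such as that of Acta2, whose values did not give whole numbers in all tumors. The median-of-ratios factors between libraries were close to 1 (0.996 to 1.00). Epithelial markers were present in the labelled tissue: Erbb2 lay between 20.3 and 31.4 FPKM and the luminal keratin Krt8 between 431 and 1041 FPKM in the 6 tumors. The Erbb2 value is that of the mouse gene, and how far it includes transcripts of the transgene was not tested. A separate feature split the libraries across both groups. The skeletal muscle markers, 18 genes in all, summed to between 114 and 242 FPKM in IgG replicate 2 and anti-PD-1 replicates 1 and 2, and to between 2.58 and 8.82 FPKM in the other 3 tumors. The skeletal muscle actin Acta1 was at 37.7 to 50.1 FPKM in the former and at 0 to 1.71 FPKM in the latter. Des and Tpm2, which skeletal muscle expresses too, are therefore given with and without these 3 tumors.

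FPKM is scaled per length, so that levels can be set side by side between genes. Averaged over the 6 tumors, Acta2 had the highest FPKM of the 10 (20.05), followed by Myl9 (10.5), Lmod1 (8.76), Tpm2 (7.36), Des (2.92), Mylk (2.78), Actg2 (1.72), Myh11 (0.875), Tagln (0.636) and Cnn1 (0.530). The order was not fixed from tumor to tumor, as the ranges over the 6 tumors overlapped for each of the 9 pairs of neighbours. The higher gene of a pair was above its neighbour in all 6 tumors for Tpm2 over Des only, and in 2 of 6 for Des over Mylk. The places of Tpm2 and Des rest on the 3 tumors with high skeletal muscle genes: in the other 3, Tpm2 was at 2.26 to 3.53 FPKM and Des, at 0.841 to 0.956 FPKM, was below Mylk (1.27 to 3.92 FPKM). Acta2 stood at the 82.4th percentile of mean FPKM among the tested genes, whereas the defining smooth muscle genes Myh11, Tagln and Cnn1 were all below the 15th. As the tumors are mixed tissue, fewer contractile cells and less RNA per such cell cannot be told apart in any of these values.

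Acta2 was far above Tagln and Myh11, which usually accompany it in smooth muscle, but not above every member of the set. In IgG replicate 2, Myl9 (17.3 FPKM) and Tpm2 (16.7 FPKM) exceeded it (10.3 FPKM). Within a tumor, Acta2 was between 10.9 and 58.2 times as high as Tagln in FPKM (median 30.6) and between 9.80 and 36.5 times as high as Myh11 (median 27.5). Lmod1, an actin nucleator best known from smooth muscle, was between 3.52 and 18.1 times as high as Myh11 (median 11.1). The non-muscle relatives were in turn well above the smooth muscle forms. Actb, the cytoplasmic actin, was 27.2 to 103 times as high as Acta2 in FPKM, Tagln2 was 47.6 to 277 times as high as Tagln, and the non-muscle heavy chain Myh9 was 48.3 to 195 times as high as Myh11. Among the light chains Myl12a was 2.55 to 8.79 times as high as Myl9. Tpm1, a tropomyosin gene that muscle and other cells share, was 4.26 to 17.9 times as high as Tpm2, with the lowest ratio in IgG replicate 2, one of the tumors with high skeletal muscle genes.

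**Figure D1:**
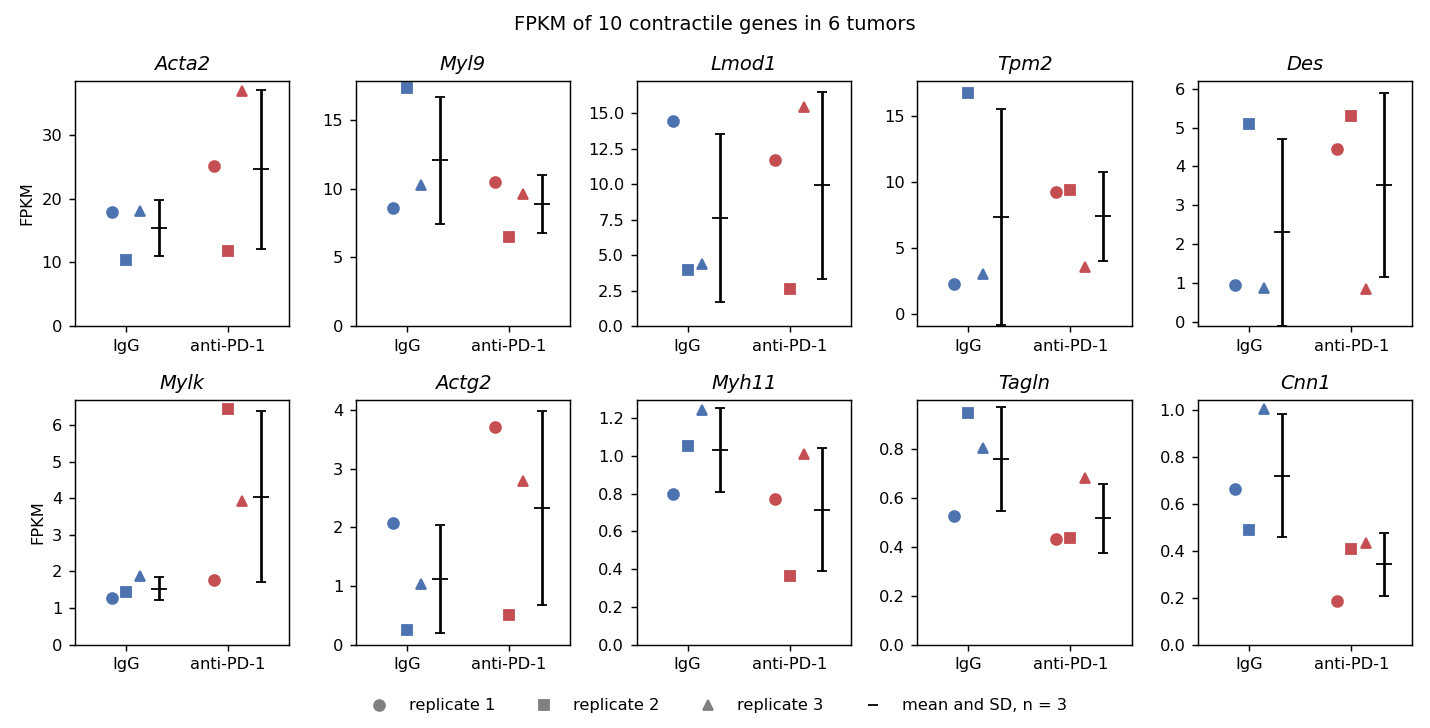
FPKM of the 10 contractile genes (vertical axes, linear, each with its own scale) in the 3 IgG tumors (blue) and the 3 anti-PD-1 tumors (red), with the replicate number given by the symbol and the mean and SD (n = 3) in black. The groups overlap in every panel except that of Cnn1, in which the anti-PD-1 tumors (0.186 to 0.431 FPKM) lie below the IgG tumors (0.487 to 1.00 FPKM).

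Among the actins, Acta2 (ENSMUSG00000035783, GRCm38 chromosome 19, 34241090 to 34255590, minus strand) is the smooth muscle alpha-actin that marks myofibroblasts. It was at 17.9, 10.3 and 18.1 FPKM in the IgG tumors, replicates in order, and 25.2, 11.9 and 37.0 FPKM in those given anti-PD-1. The highest values were those of anti-PD-1 replicates 3 and 1, while anti-PD-1 replicate 2 lay within the IgG range, so the groups overlapped. The means were 15.4 ± 4.43 FPKM with IgG and 24.7 ± 12.6 FPKM with anti-PD-1 (SD, n = 3). On the log2(FPKM + 1) scale used for every test here, the difference was 0.55 (SE 0.41, 95% interval -0.41 to 1.52), with an adjusted p of 0.608 in limma. It ranged from 0.20, with anti-PD-1 replicate 3 left out, to 0.99, with anti-PD-1 replicate 2 left out. The reads behind the Acta2 values did not come out as whole numbers with the exon length used here, so their number is not given.

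Actg2 (ENSMUSG00000059430, chromosome 6, 83512905 to 83536265, minus strand) encodes the gamma-actin of visceral smooth muscle. It was at 2.07, 0.241 and 1.03 FPKM in the 3 tumors under IgG and 3.71, 0.503 and 2.78 FPKM in the 3 under anti-PD-1. It had the widest spread of the 10 genes, with its highest tumor 15.4 times as high as its lowest, and both replicates numbered 2 were low while the groups overlapped. The group means were 1.11 ± 0.919 and 2.33 ± 1.65 FPKM (SD, n = 3), a log2 difference of 0.60 (SE 0.50, adjusted p = 0.640), and the values rested on between 9 and 148 reads. It was 0.27 without IgG replicate 2 or without anti-PD-1 replicate 1, 1.0997 without anti-PD-1 replicate 2, 1.00 with 0.1 added in place of 1, and 1.13 with voom. Actin transcripts are much alike. The longest run of identical bases that Acta2 shares with another actin was 29 for Actg2 and Acta1, 47 for Actb and 56 for Actg1. For Actg2 the longest such run was 38, with Actc1. A read wholly within such a run cannot be assigned to 1 actin by its bases, and how many reads lay so was not tested.

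Of the myosin genes, Myh11 (ENSMUSG00000018830, chromosome 16, 14194535 to 14291372, minus strand), the heavy chain regarded as the most specific marker of mature smooth muscle, was low throughout. It was at 0.801, 1.05 and 1.25 FPKM with IgG and 0.771, 0.364 and 1.01 FPKM with anti-PD-1 in the order of replicates, from 67 to 231 reads. Anti-PD-1 replicate 2 was the lowest of the 6, and anti-PD-1 replicate 3 lay within the IgG range, so the groups overlapped. The difference was -0.25 on the log2 scale (SE 0.23, adjusted p = 0.668). It ranged from -0.098 without anti-PD-1 replicate 2 to -0.38 without anti-PD-1 replicate 3, and it was -0.54 with 0.1 added in place of 1 and -0.63 with voom.

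Myl9 (ENSMUSG00000067818, chromosome 2, 156775420 to 156781658, plus strand) encodes the regulatory light chain that the kinase phosphorylates. It was at 8.602, 17.3 and 10.3 FPKM in the IgG tumors, replicates in order, and 10.5, 6.49 and 9.64 FPKM in those given anti-PD-1. IgG replicate 2 alone was high and anti-PD-1 replicate 2 alone low, while the other 4 tumors lay between 8.602 and 10.5 FPKM. The means were 12.1 ± 4.62 and 8.87 ± 2.10 FPKM (SD, n = 3), and the log2 difference was -0.37 (SE 0.29, adjusted p = 0.621). It was -0.096 when IgG replicate 2 was left out, -0.18 when it was anti-PD-1 replicate 2, and -0.56 when it was IgG replicate 1.

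Mylk (ENSMUSG00000022836, chromosome 16, 34745210 to 35002420, plus strand) encodes the light chain kinase, in a long and a short form, and telokin. It was at 1.27, 1.42 and 1.87 FPKM in the 3 tumors under IgG and 1.78, 6.44 and 3.92 FPKM in the 3 under anti-PD-1. The IgG tumors were close together, and anti-PD-1 replicates 2 and 3 were above all of them, but anti-PD-1 replicate 1 was below IgG replicate 3. The means were 1.52 ± 0.312 FPKM with IgG and 4.05 ± 2.33 FPKM with anti-PD-1 (SD, n = 3). Mylk had the largest log2 difference of the 10 genes, 0.90 (SE 0.35, 95% interval 0.07 to 1.72), and the only interval that did not reach 0. The unadjusted p in limma was 0.0365, the adjusted p was 0.387 and the exact permutation p was 0.2. Without anti-PD-1 replicate 2 the difference was 0.56, at an unadjusted p of 0.109 in limma, while leaving out anti-PD-1 replicate 1 gave 1.27, at 0.0024. The unadjusted p was over 0.05 when any tumor except anti-PD-1 replicate 1 was left out. Mylk overlaps 3 antisense RNAs (1700119H24Rik, E130310I04Rik and Gm21691), and the value per gene does not separate the long kinase, the short kinase and telokin.

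On the thin filament, Tagln (ENSMUSG00000032085, chromosome 9, 45929619 to 45936058, minus strand), an early marker of smooth muscle differentiation, was at 0.526, 0.943 and 0.804 FPKM with IgG and 0.432, 0.436 and 0.678 FPKM with anti-PD-1 in the order of replicates. These values rested on only 21 to 45 reads, and the groups overlapped, since anti-PD-1 replicate 3 was above IgG replicate 1. The log2 difference was -0.21 (SE 0.21, adjusted p = 0.710), from -0.13 with IgG replicate 2 left out to -0.31 with IgG replicate 1 left out. It was -0.47 with 0.1 added in place of 1 and -0.55 with voom. Tagln overlaps Pcsk7 and Gm48529 on the other strand, and whether the counting used strand is not given in the sources used here.

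Cnn1 (ENSMUSG00000001349, chromosome 9, 22099216 to 22109630, plus strand), the calponin of differentiated smooth muscle, was at 0.664, 0.487 and 1.00 FPKM in the IgG tumors, replicates in order, and 0.186, 0.407 and 0.431 FPKM in those given anti-PD-1. It was the one gene of the 10 whose groups did not overlap, with all anti-PD-1 tumors below all IgG tumors. The means were 0.718 ± 0.262 and 0.341 ± 0.135 FPKM (SD, n = 3), the log2 difference was -0.35 (SE 0.22, adjusted p = 0.547), and the exact permutation p was 0.1, the smallest that 3 against 3 tumors allow. It passed the filter through its level in the IgG tumors, and its values came from 13 to 67 reads. The tested genes of chromosome 9 had a median log2 difference of -0.36; relative to it, Cnn1 differed by 0.0076 and Tagln by 0.15, both in the opposite direction. At these low levels the added 1 compresses the difference: with 0.1 added, Cnn1 differed by -0.89, and by -0.43 relative to its chromosome, and with voom on reads by -1.099 and -0.63. For Tagln the values relative to the chromosome were -0.0085 with 0.1 added and -0.08 with voom, so the reversal was seen with the added 1 only.

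Lmod1 (ENSMUSG00000048096, chromosome 1, 135324807 to 135368065, plus strand) encodes leiomodin, which starts new actin filaments. It was at 14.5, 3.98 and 4.39 FPKM in the 3 tumors under IgG and 11.7, 2.58 and 15.4 FPKM in the 3 under anti-PD-1, from 247 to 1446 reads. Each group held high and low tumors, with IgG replicate 1 and anti-PD-1 replicates 1 and 3 far above the other 3. The log2 difference of 0.29 (SE 0.65, adjusted p = 0.881) turned to -0.14 when anti-PD-1 replicate 3 was left out and to -0.0039 when IgG replicate 2 was left out, and it was 0.81 when IgG replicate 1, and 0.96 when anti-PD-1 replicate 2, was left out.

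Tpm2 (ENSMUSG00000028464, chromosome 4, 43514711 to 43523765, minus strand), the beta-tropomyosin of smooth and skeletal muscle, was at 2.26, 16.7 and 3.01 FPKM with IgG and 9.21, 9.41 and 3.53 FPKM with anti-PD-1 in the order of replicates. Des (ENSMUSG00000026208, chromosome 1, 75360329 to 75368579, plus strand), the intermediate filament protein of all muscle types, was at 0.956, 5.08 and 0.873 FPKM in the IgG tumors, replicates in order, and 4.44, 5.31 and 0.841 FPKM in those given anti-PD-1. Both genes were high in the same 3 tumors, IgG replicate 2 and anti-PD-1 replicates 1 and 2, with a wide gap to the others. Des was at 4.44 to 5.31 FPKM in these tumors and at 0.841 to 0.956 FPKM in the rest, and Tpm2 was at 9.21 to 16.7 against 2.26 to 3.53 FPKM. They are the tumors in which the skeletal muscle markers were high, and all 12 tested skeletal muscle genes had the same 3 highest tumors, as did 2.85% of all tested genes. Between treatments, the log2 difference was 0.35 for Tpm2 (SE 0.66, adjusted p = 0.852) and 0.50 for Des (SE 0.61, adjusted p = 0.761). Leaving out 1 tumor at a time moved it between -0.10 (without IgG replicate 1) and 1.12 (without IgG replicate 2) for Tpm2 and between 0.17 (without anti-PD-1 replicate 2) and 1.06 (without anti-PD-1 replicate 3 or IgG replicate 2) for Des. With the 3 tumors left out it was 0.33 for Tpm2 and -0.054 for Des, but this sets 2 IgG tumors against anti-PD-1 replicate 3 alone, whose spread is unknown, and so does not serve as a test. The tested genes of chromosome 4 had a median log2 difference of -0.40, relative to which Tpm2 differed by 0.76. Both genes are expressed in skeletal muscle as well as in smooth muscle, and the share of their reads that came from each was not tested. Des also overlaps Gm15179 on the other strand.

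**Figure D2:**
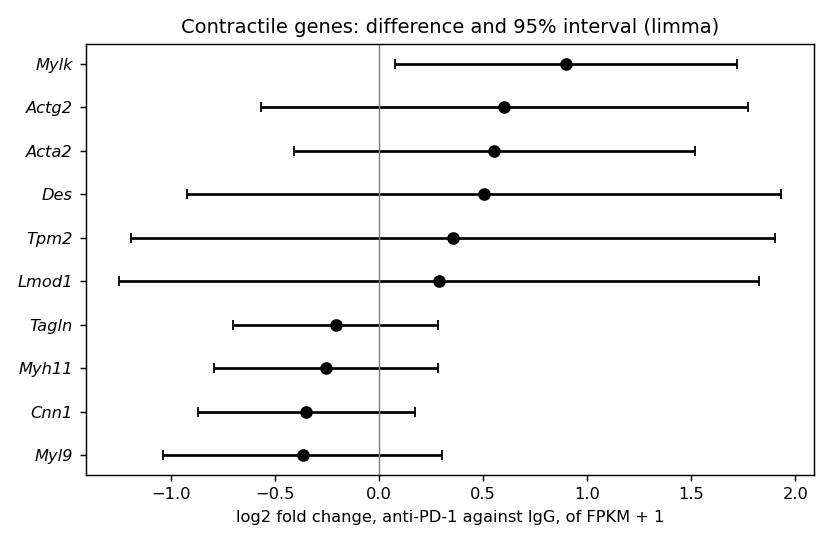
Log2 fold change of FPKM + 1 between anti-PD-1 and IgG tumors (horizontal axis) for each contractile gene (vertical axis), with the 95% interval of the limma fit (3 tumors per group). The points run from -0.37 (Myl9) to 0.90 (Mylk), and every interval except that of Mylk (0.07 to 1.72) crosses 0.

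The comparison of the treatments asks whether PD-1 blockade went with a different level of the contractile genes in fibrotic tumors. Of the 10 genes, 6 were higher (Mylk, Actg2, Acta2, Des, Tpm2 and Lmod1) and 4 lower (Tagln, Myh11, Cnn1 and Myl9) in the anti-PD-1 tumors. Of all 15069 tested genes, 7651 were higher and 7418 lower. Limma found 0 of the 10 at an adjusted p under 0.05, as it did 0 of the 15069 tested genes (0%). At an unadjusted p under 0.05 it found 1 higher gene (Mylk), where 6.22% of all tested genes were called higher, and 0 lower genes, where 6.05% were called lower. Limma's voom on the recovered reads, which tested 9 of the genes, likewise found 0 at an adjusted p under 0.05, 1 higher at an unadjusted p under 0.05 and 0 lower. The count of 1 higher gene became 0 when IgG replicate 1, IgG replicate 3 or anti-PD-1 replicate 3 was left out, and 2 (Acta2 and Actg2) when it was anti-PD-1 replicate 2. It was 1 without IgG replicate 2, but the gene was then Tpm2 and not Mylk. Groups without overlap were seen for 0 higher and 1 lower gene, against 9.3% and 8.75% of all tested genes. These shares are close to those among all genes, and p-values here measure the spread between these tumors, which the labels do not tie to separate animals.

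The median log2 difference of the 10 genes was 0.32, against 0.0071 for all tested genes. It moved to between 0.032 and 0.16 when any 1 tumor was left out (lowest with anti-PD-1 replicate 3 removed, highest with anti-PD-1 replicate 2 removed), and it was 0.039 over the 8 genes other than Des and Tpm2. In each of the 10 genes the difference between the group means was smaller than the larger of the ranges within the groups, and in 8 of them (all but Mylk and Cnn1) it was smaller than both.

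The tumors differed in which contractile genes were high. The median deviation of the 10 genes from their 6-tumor mean was -0.07, 0.06 and -0.14 on the log2 scale for the IgG tumors and 0.25, -0.31 and 0.08 for the anti-PD-1 tumors. Even anti-PD-1 replicate 2, the tumor with the lowest median, was the highest of the 6 for Mylk and Des, and it was the lowest for 3 of the genes.

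Another pair of contractile genes was highest in the tumors in which several collagens were highest. Actg2 and Lmod1 had the same 3 highest tumors, IgG replicate 1 and anti-PD-1 replicates 1 and 3, as did 5.43% of all tested genes. Of the 16 fibroblast markers, 9 had these 3 highest tumors too, among them the collagens Col1a1, Col1a2 and Col3a1 and the activation markers Fap, Postn and Lox. Col1a1, the main chain of type I collagen, was at 94.2, 17.5 and 34.5 FPKM in the 3 tumors under IgG and 124, 31.8 and 72.1 FPKM in the 3 under anti-PD-1. The same 3 tumors were thus highest for Col1a1 as for Actg2 and Lmod1, with the groups overlapping (log2 difference 0.76, SE 0.67, adjusted p = 0.666). Acta2 was highest in IgG replicate 3 and anti-PD-1 replicates 1 and 3, as were 4 of the 16 fibroblast markers (Pdgfra, Dpt, Fbln1 and Pi16) and 5.41% of all tested genes. For Acta2 this set rests on a near tie, with IgG replicate 3 at 18.1 and IgG replicate 1 at 17.9 FPKM. Myh11 and Tagln shared IgG replicates 2 and 3 and anti-PD-1 replicate 3 as their highest tumors, a set seen in 4.61% of all tested genes. Sets of 3 out of 6 tumors number 20, so these counts are a description of the libraries and carry no test.

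**Figure D3:**
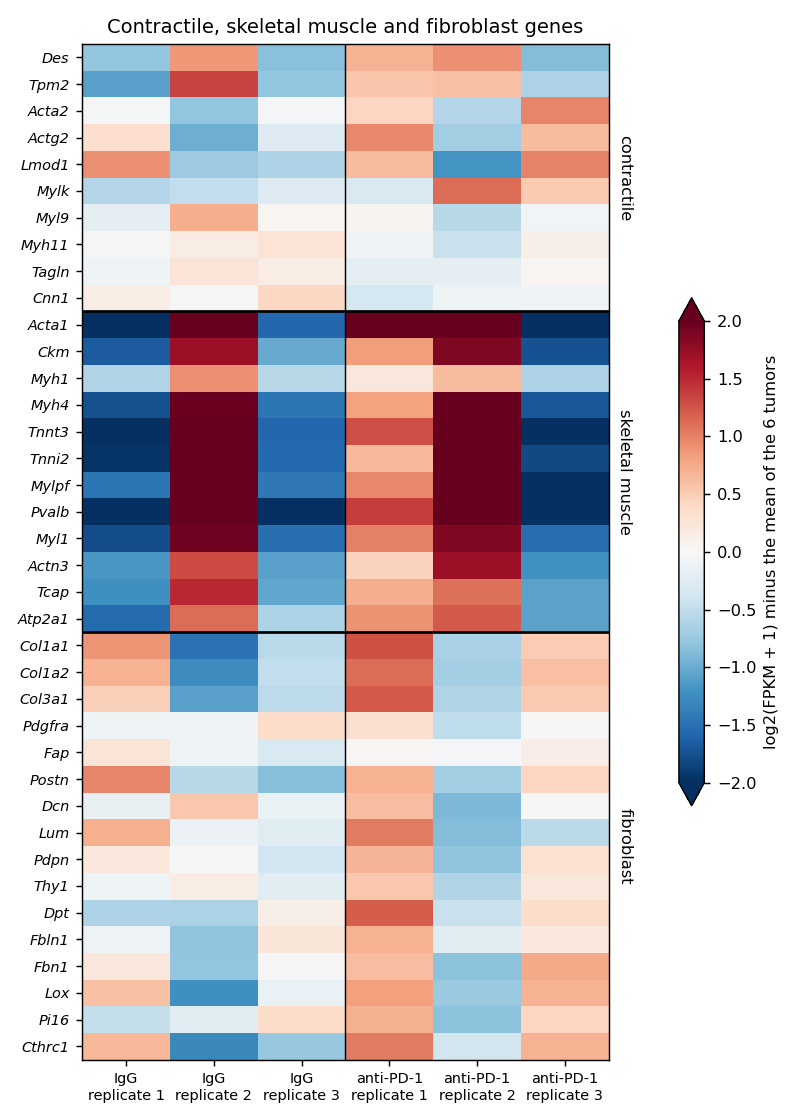
Log2(FPKM + 1) of each gene (rows) minus its mean over the 6 tumors (columns), for the 10 contractile genes and the tested skeletal muscle and fibroblast markers, with red above and blue below the mean and the colors capped at 2 and -2. Des and Tpm2 share the pattern of the skeletal muscle genes, high in IgG replicate 2 and anti-PD-1 replicates 1 and 2, and Actg2 and Lmod1 share that of the collagens.

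The mean profile of the 10 genes over the 6 tumors was compared with 12390 other protein-coding genes by the root mean square difference of the centred log2 values, and the closest were Vps8 (0.0351), Tbcd (0.0396), Hhex (0.0411), Guk1 (0.0449) and Calr (0.0516). The averaging left a shallow profile, at 0.165 from a flat line, while the 10 genes were at 0.249 (Tagln) to 0.836 (Tpm2) from it, so closeness to it says little about any of them.

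Genes that control or accompany the contractile apparatus were taken from lists of 18 regulators and 33 other cytoskeletal genes. Of these 51 genes, 47 were tested, and 19 were higher and 28 lower under anti-PD-1, with a median log2 difference of -0.04, and 0 had an adjusted p under 0.05. At an unadjusted p under 0.05, 1 was higher (Tes) and 3 were lower (Rock1, Ppp1cb and Ldb3), 4 genes of 47 beside 12.3% of all tested genes in either direction. The 3 lower genes became 0 when IgG replicate 2, anti-PD-1 replicate 2 or anti-PD-1 replicate 3 was left out, 1 when it was anti-PD-1 replicate 1 and 5 when it was IgG replicate 3. The count of 1 higher gene became 5 when IgG replicate 1 was left out and 3 when it was anti-PD-1 replicate 2 or 3.

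The switch of the programme itself was uneven. Myocardin (Myocd), the coactivator found mainly in cardiac and smooth muscle, was close to 0, with 0 to 12 reads per tumor and at most 0.0765 FPKM, and it was not tested. Srf, the factor that binds the CArG box, was present at 15.2 to 23.5 FPKM (log2 difference -0.15, SE 0.19, adjusted p = 0.774). The actin-sensing coactivators were present too, Mrtfa at 4.23 to 6.65 FPKM (0.09, SE 0.22, adjusted p = 0.883) and Mrtfb at 8.57 to 10.4 FPKM (-0.13, SE 0.14, adjusted p = 0.719). The strict CArG box described above for Myl9 was also found before 9 of the 46 related genes with a promoter window (19.6%), Srf and Fhl2 among them, and the form with 1 inner C or G was found before 5 (10.9%).

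The largest differences among these related genes were those of Tes, Fhl2 and Ldb3. Tes (testin), which binds zyxin at focal adhesions, was at 23.1, 12.8 and 10.3 FPKM with IgG and 29.0, 37.9 and 35.0 FPKM with anti-PD-1 in the order of replicates. All anti-PD-1 tumors were above all IgG tumors, at 34.0 ± 4.53 against 15.4 ± 6.79 FPKM (SD, n = 3), for a log2 difference of 1.16 (SE 0.29, adjusted p = 0.344). Fhl2, an LIM protein that modulates Srf targets, was at 10.8, 7.73 and 2.18 FPKM in the IgG tumors, replicates in order, and 11.4, 13.3 and 13.7 FPKM in those given anti-PD-1, again without overlap, though the gap between the groups was narrow (1.00, SE 0.45, adjusted p = 0.423). Tagln2, the non-muscle transgelin, differed by 0.60 (SE 0.38, adjusted p = 0.543).

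On the lower side, Ldb3, a Z-disc protein of striated muscle, was at 1.06, 3.76 and 3.41 FPKM in the 3 tumors under IgG and 0.877, 1.20 and 0.903 FPKM in the 3 under anti-PD-1. The groups overlapped, as IgG replicate 1 lay below anti-PD-1 replicate 2 (-0.82, SE 0.33, adjusted p = 0.397). Rock1, a kinase that restrains myosin phosphatase, was at 18.2 ± 2.82 FPKM with IgG and 13.3 ± 1.31 FPKM with anti-PD-1 (SD, n = 3), a log2 difference of -0.42 (SE 0.17, adjusted p = 0.395). Ppp1cb, the catalytic subunit of myosin phosphatase, was at 67.7 ± 6.88 and 50.1 ± 4.55 FPKM (-0.42, SE 0.16, adjusted p = 0.378). Ppp1r12b, which targets that phosphatase to myosin, differed by -0.51 (SE 0.25, adjusted p = 0.449). Tgfbr1, the type I receptor for TGF-β, differed by -0.42 (SE 0.24, unadjusted p = 0.119 in limma). It lies on chromosome 4, whose tested genes had a median log2 difference of -0.40, close to that of Tgfbr1.

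Of the 47 genes, 5 were higher without overlap between the groups (Tes, Fhl2, Actb, Actg1 and Myl12a) and 3 were lower (Rock1, Ppp1r12b and Ppp1cb), beside 9.3% and 8.75% of all tested genes; counts near this background are no result about the list. The cytoplasmic actins Actb and Actg1 differed by 0.54 (adjusted p = 0.414) and 0.38 (adjusted p = 0.501), and the non-muscle light chain Myl12a by 0.59 (adjusted p = 0.419). In the smooth muscle counterparts Acta2, Actg2 and Myl9 the groups overlapped; whether the non-muscle and smooth muscle forms differed in their response was not tested.

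**Figure D4:**
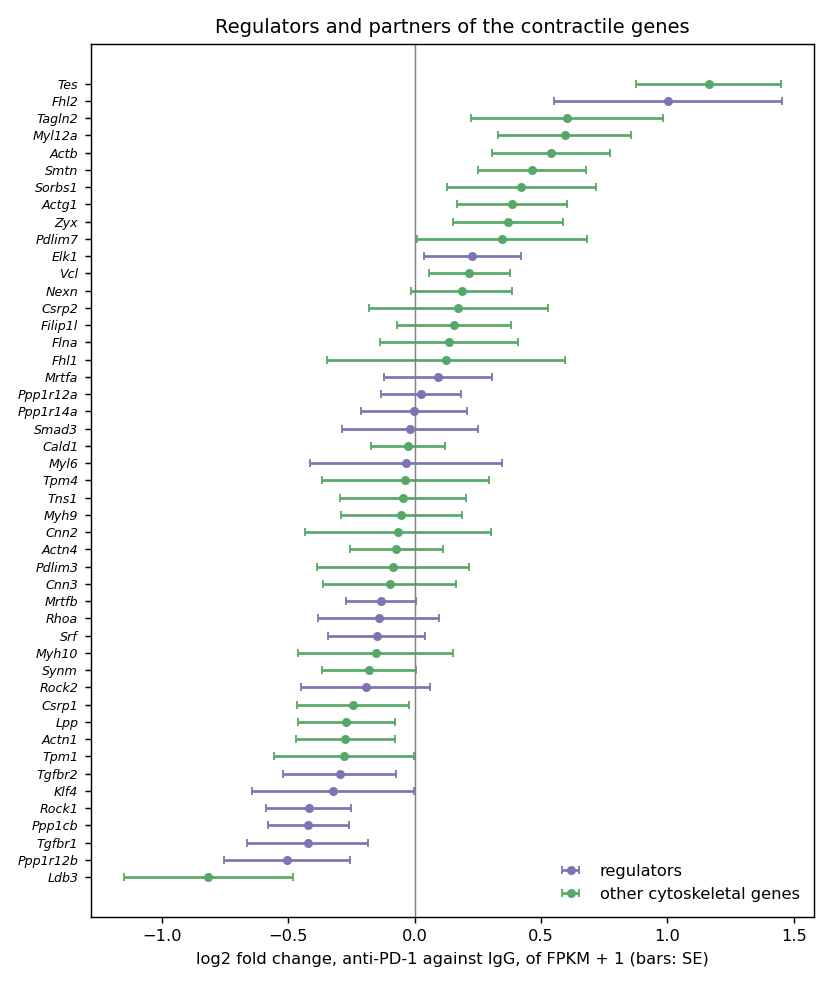
Log2 fold change of FPKM + 1 between anti-PD-1 and IgG tumors (horizontal axis) for the 47 tested regulators (purple) and other cytoskeletal genes (green) on the vertical axis, with the SE of the limma fit (3 tumors per group). Tes (1.16) and Fhl2 (1.00) lie at one end and Ldb3 (-0.82) at the other, around a median of -0.04.

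The cell types that could carry these genes were followed by their markers. Of the myoepithelial list of 11 genes, the defining ones were low: the basal keratins Krt5 and Krt14 were at 0.248 to 2.44 and 0.311 to 2.99 FPKM and the basal transcription factor Trp63 at 0.135 to 0.785 FPKM. None was at 0, and the oxytocin receptor Oxtr, through which myoepithelium is made to contract, was at 0.824 to 5.77 FPKM (log2 difference -0.77, SE 0.40, adjusted p = 0.472). Krt17, from 1 to 40 reads, was lower in all anti-PD-1 tumors than in all IgG tumors (-0.66, SE 0.24, adjusted p = 0.370), and, like Cnn1, it passed the filter through its level in the IgG tumors, so that this is no separate support. Itgb4, an integrin of the basal cell surface, went the other way without overlap, at 34.0 ± 15.5 FPKM with IgG and 60.6 ± 4.98 FPKM with anti-PD-1 (SD, n = 3; 0.91, SE 0.31, adjusted p = 0.357). The summed level of the list, 51.7 to 119 FPKM with IgG and 92.7 to 125 FPKM with anti-PD-1, came largely from Itgb4 (mean 47.3 FPKM), Moxd1 (mean 19.9 FPKM) and Dst (mean 18.7 FPKM) and does not follow its defining genes. Of its 9 tested genes, 4 were higher and 5 lower, with a median of -0.09. Groups without overlap were seen for 1 higher gene (Itgb4) and 1 lower gene (Krt17), beside 9.3% and 8.75% of all tested genes.

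Markers of vascular smooth muscle and pericytes, 18 in all, were uneven as well. The pericyte gene Rgs5 was at 10.99 to 24.5 FPKM (-0.46, SE 0.24, adjusted p = 0.457) and the pericyte receptor Pdgfrb at 2.09 to 6.58 FPKM (-0.14, SE 0.32, adjusted p = 0.881). The pericyte channel genes had higher means, Kcnj8 by 1.07 (SE 0.51, adjusted p = 0.435), the largest difference of the list, and Abcc9 by 0.20 (SE 0.32, adjusted p = 0.829), with overlapping groups for both. Kcnmb1, a channel subunit typical of arterial smooth muscle, was low, at 0.121 to 0.189 FPKM and Pln, which controls calcium uptake, at 0.0142 to 0.137 FPKM. The sum of the list was 194 to 482 FPKM with IgG and 153 to 314 FPKM with anti-PD-1, largely from Npnt (mean 151) and Itga8 (mean 36.9), and of 13 tested genes 4 were higher and 9 lower, with a median of -0.07. The endothelial marker Pecam1 was at 3.93 to 6.73 FPKM (-0.21, SE 0.20, adjusted p = 0.703), and 10 of 11 endothelial genes were lower with a median of -0.19, of which Robo4 alone had groups without overlap (-0.40, SE 0.20, adjusted p = 0.445), beside 8.75% of all tested genes. Robo4 lies on chromosome 9, whose tested genes had a median log2 difference of -0.36, close to that of Robo4. Of all 15069 tested genes, 7418 were lower and 7651 higher.

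The 16 fibroblast markers were all tested, with 13 higher and 3 lower and a median log2 difference of 0.33. Their sum was 336, 119.5 and 160 FPKM with IgG and 460, 131 and 299.9 FPKM with anti-PD-1 in the order of replicates, while that of the contractile genes was 49.5, 57.6 and 42.6 FPKM and then 67.9, 43.8 and 75.2 FPKM. The fibroblast receptor Pdgfra was at 0.917 to 2.497 FPKM (-0.12, SE 0.27, adjusted p = 0.873). Among the 12 tested skeletal muscle genes all 12 were higher, with a median of 0.76 and overlapping groups in each, led in level by Acta1 and Tnnt3 (mean 16.3 FPKM), with the muscle creatine kinase Ckm at 4.95 to 11.1 FPKM in the 3 tumors named above and at 0 to 0.661 FPKM in the others. All 12 had the same 3 highest tumors, IgG replicate 2 and anti-PD-1 replicates 1 and 2, so their shared direction is not 12 separate results. Luminal epithelial genes, led by Epcam (mean 949 FPKM) and Krt18 (mean 898 FPKM), were higher in 6 and lower in 3 of 9. Among them Erbb2 (0.34) and Epcam (0.43) were higher without overlap (9.3% of all tested genes) and Krt19 was lower without overlap (8.75% of all tested genes), with IgG replicate 2 at 77.9 FPKM and the other 5 tumors between 1.70 and 7.84 FPKM (-2.03, SE 0.85, adjusted p = 0.404). Leukocyte genes, led by Lyz2 (mean 231 FPKM) and Cd68 (mean 21.6 FPKM), were higher in all 6 tested, with Cd68 higher without overlap (0.76, SE 0.19, adjusted p = 0.344), again beside 9.3%. Of the adipocyte genes only Fabp4 (mean 3.57 FPKM) and Cfd (mean 1.99 FPKM) were tested, both lower. None of these list genes had an adjusted p under 0.05. Among all 15069 tested genes, 7651 were higher and 7418 lower. Genes of 1 list can vary together, so counts by direction carry no test. Which of these cells the contractile transcripts came from was not tested.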

How the data were processed

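RNAseq of 6 mammary tumors was used, grouped by the sample titles into IgG (3) and anti-PD-1 (3). Per the labels, the authors' tools were FastQC 0.11.9, cutadapt 3.5, Bowtie2 2.4.1, RSEM 1.3.1, DESeq2 1.36.0 and R 4.1, on mm10. The authors deposited FPKM per Ensembl gene ID for each tumor; how the FPKM was computed is not given in the sources used here. Of 54532 IDs, 54409 matched GENCODE M21 (GRCm38), and the 10 genes were found by symbol. Within 0.1 of a whole number, 97.0% to 97.3% of detected values per tumor gave whole reads when multiplied by exon length, and the library totals given are sums over IDs that were whole in all tumors.

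As the values are FPKM, the count test of the study's methods was replaced: log2(FPKM + 1), after division by median-of-ratios factors, was tested with limma for genes averaging 0.5 FPKM or more (limma 3.58.1, R 4.3.3, eBayes with trend, two-sided, Benjamini-Hochberg over 15069 genes). Such a fold change understates that of low genes. Exact permutation tests were two-sided. Scripts (Python 3.11.15) were tested on simulated data. The genes and all lists were chosen with earlier results of these data known. Genes named besides the 10 included Myocd, Srf, Mrtfa, Mrtfb, the 3 related genes with the largest difference in each direction, the 2 highest and the best known genes of each marker list, and, picked afterwards, genes of these lists whose groups did not overlap or with an unadjusted p under 0.05, those sharing their 3 highest tumors, low markers, Myh9, Kcnj8, Abcc9 and Dst. Same-numbered tumors did not deviate together (correlations -0.16, 0.0051 and 0.19), so that the numbers were not used as pairs. Promoters were from the RefSeq table for GRCm38.p6. Alternatives were another pseudocount, filter, scaling or variance model, the replicate block, voom on recovered reads, and leaving out tumors.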

Additional observations from a re-analysis of the deposited data

How the results depend on the processing

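Over the alternatives tried, 165 of 174 values for single contractile genes kept their direction, and the adjusted p ranged from 0.350 to 1.0, so that no gene passed 0.05. The 9 that reversed were Tpm2 without IgG replicate 1 (-0.10, with values up to 1.12 when other tumors were left out), Lmod1 without IgG replicate 2 (-0.0039) and again with anti-PD-1 replicate 3 left out (-0.14), Tagln (0.15) and Cnn1 (0.0076) relative to the median of their chromosome (with 0.1 added or with voom, both settings added after seeing the data, they did not reverse), and, without the 3 tumors with high skeletal muscle genes (also added later, with 2 IgG tumors against 1 anti-PD-1 tumor, the lone tumor being assumed to vary like the others, so that these 4 are values without a test of their own), Myh11 (0.0043), Myl9 (0.035), Tagln (0.018) and Des (-0.054). The cause of the other changes was not tested.

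The count of contractile genes higher at an unadjusted p under 0.05 (1) was 0 with no filter on low FPKM, 3 (Acta2, Actg2 and Mylk) with the replicate block, a fit that called 6.09% of all tested genes higher and 5.36% lower, and 0 to 2 when 1 tumor was left out. Higher genes without overlap (0) numbered 1 under quantile normalization and 0 to 2 when 1 tumor was left out, and lower ones (1) numbered 0 at a mean FPKM of at least 2, which left 6 of the genes, and 1 to 3 when 1 tumor was left out. The median (0.32) was 0.039 without Des and Tpm2 and 0.032 to 0.16 when 1 tumor was left out. Among related genes, the higher count (1) was 2 at a mean FPKM of at least 2, under quantile normalization and without the trend, 4 with the replicate block and 4 with voom, and 1 to 5 when 1 tumor was left out; the lower count (3) was 2 at a mean FPKM of at least 2 and without the trend, 1 with the replicate block and 0 to 5 when 1 tumor was left out. The replicate block changed no call at an adjusted p under 0.05.

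Depth limits the low genes: Tagln rested on 21 to 45 reads, Cnn1 on 13 to 67, Actg2 on 9 to 148 and, among the other genes named, Krt17 on 1 to 40, Kcnmb1 on 12 to 19, Pln on 1 to 9 and Myocd on 0 to 12. With 3 tumors per group, an exact permutation p cannot go below 0.1.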
